A study of Mus musculus with 6 samples.

Results

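H2-Q7, H2-T3, Btnl1 and Gzmb belong to the contact between the gut epithelium and the lymphocytes that live within it. They were taken by gene symbol from the deposited table of colon crypt genes that differed between Smarcad1-KO and WT, and make up 4 of its 61 genes. All 4 symbols were found. The table holds genes that the authors had selected on this same contrast at an FDR under 0.05, so the values below describe selected genes and carry no test. Males of the C57BL/6 background were used, with 3 WT libraries and 3 libraries from mice with a Vil-Cre mediated KO of Smarcad1, a chromatin remodeller gene. Cre acts under the Villin promoter, which is active in the intestinal epithelium, on floxed Smarcad1 exons in a line derived from a single targeted ES cell clone. The age of the mice, and whether the WT mice carried the floxed allele or Cre, are not given in the sources used here. RNA came from colon crypts shaken off as whole crypts, a preparation that was not sorted and can therefore hold lymphocytes of the crypt epithelium.

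Intraepithelial lymphocytes are T cells lodged between epithelial cells, many of them of the gamma-delta or CD8 alpha-alpha type. Epithelial cells hold and instruct them through surface molecules. H2-T3 encodes the thymus leukaemia antigen, a non-classical MHC class I molecule of the mouse intestinal epithelium that binds CD8 alpha-alpha. H2-Q7 encodes Qa-2, a non-classical class I molecule that, unlike the thymus leukaemia antigen, presents peptides. Btnl1 belongs to the butyrophilin-like family, whose members on enterocytes support gamma-delta T cells of the gut. Gzmb encodes granzyme B, a serine protease of cytotoxic granules that is expressed by activated and resident cytotoxic lymphocytes.

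Sequences before the RefSeq start of the 4 genes are shown because they are a feature that the choice of genes did not use. They were read from RefSeq promoters of build GRCm38.p6, in which all 4 genes matched, and run 5′ to 3′ along the strand of the gene. Capitals mark matches to the motifs searched, and positions are counted back from the RefSeq transcription start. The stretches of H2-Q7 and Btnl1 end 16 and 10 bases before that start, since only bases upstream of every annotated exon are shown. Positions are therefore not counted from the last base printed for these genes. The stretch of H2-Q7 is chr17:35438905-35439139 on the plus strand, that of Btnl1 is chr17:34376882-34377122 on the plus strand, and that of Gzmb is chr14:56262335-56262584 on the minus strand.
H2-Q7: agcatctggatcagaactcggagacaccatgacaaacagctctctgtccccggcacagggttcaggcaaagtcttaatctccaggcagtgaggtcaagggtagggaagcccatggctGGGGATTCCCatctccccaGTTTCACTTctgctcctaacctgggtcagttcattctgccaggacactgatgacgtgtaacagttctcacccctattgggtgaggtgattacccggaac
Btnl1: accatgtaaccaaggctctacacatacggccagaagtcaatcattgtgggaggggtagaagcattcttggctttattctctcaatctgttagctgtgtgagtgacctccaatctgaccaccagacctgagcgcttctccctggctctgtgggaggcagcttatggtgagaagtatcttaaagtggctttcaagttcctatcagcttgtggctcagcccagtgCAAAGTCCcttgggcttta
Gzmb: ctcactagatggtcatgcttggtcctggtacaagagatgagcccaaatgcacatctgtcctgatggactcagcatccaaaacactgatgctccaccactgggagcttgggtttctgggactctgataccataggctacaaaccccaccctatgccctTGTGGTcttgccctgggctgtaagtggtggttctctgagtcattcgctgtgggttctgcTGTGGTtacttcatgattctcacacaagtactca
The RefSeq promoter of H2-T3 overlaps an exon of an isoform that starts further upstream, so its matches lie inside the annotated gene and not upstream of it. The part of this promoter upstream of that isoform holds no match and is not shown. Windows of 30 bases around the matches are given, at chr17:36190259-36190288, chr17:36190177-36190206 and chr17:36190152-36190181 on the minus strand.
H2-T3, interferon response element core: cagaactataGTTTCACTTtttgctctctg
H2-T3, CDX motif: cttagaagatgCAATAAAactctctgagat
H2-T3, HNF4 motif: gagattgcaagttaCAAAGTCCAggacttt

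The targeted gene was looked at first. The authors' mean for Smarcad1 was 2.87 in KO and 4.58 in WT on the log2 scale, lower in the libraries labelled KO. Of the 4 genes, 2 had a lower mean in KO, Gzmb and H2-Q7, and 2 had a higher mean, H2-T3 and Btnl1. In the whole list 44.3% of the genes were lower and 55.7% were higher in KO. The 4 genes were chosen from a list selected on this same contrast, with earlier results of these data known. Values per library were not used here, and whether the libraries of KO and WT overlap was not analysed.

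Gzmb was lower in KO. The authors' mean log2 expression, normalised to total reads, was 2.72 in WT and 1.17 in KO. The difference of -1.55 on the log2 scale put KO at 34.2% of the WT level. Its level was low, the 7th lowest of the 61 listed genes in KO and the 10th lowest in WT. With a pseudocount of 1 the difference was -1.22. In RNA from a mixture of cells, fewer granzyme-expressing cells and less Gzmb RNA per cell cannot be told apart. Other lymphocyte genes were then looked up. For scale, 56 of 21924 protein-coding gene names of GENCODE M21, or 0.255%, are in the table by symbol, and how many genes the authors tested is not given in the sources used here. A count of 0 among a few such genes is therefore no result about them. The other cytotoxic granule genes gave no further value, since Gzmb was the only listed gene among 15, which also included perforin (Prf1) and granzyme A (Gzma). None of 30 identity genes of T cells and intraepithelial lymphocytes was listed, Cd3e, Cd8a, Trdc and Itgae among them, and none of 15 markers of other immune cells. The part of a changed number of lymphocytes in the Gzmb value was not tested, because genes that are not listed have no value in the table.

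H2-Q7 was also lower in KO. Its mean log2 expression was 3.75 in WT and 2.69 in KO, a difference of -1.06, which put KO at 48.1% of the WT level. Part of its sequence also occurs in other genes, as described below, which makes these values uncertain. Gzmb and H2-Q7 were the members that differed by more than 1 log2 unit, as 37.7% of the list did, and 19.7% of the list was lower by more than that. With a pseudocount of 1 the H2-Q7 difference was -0.95, under that size.

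H2-T3, the other non-classical class I gene, went the opposite way. Its mean log2 expression was 4.24 in WT and 4.95 in KO, a difference of 0.70, so that KO stood at 163% of the WT level. The differences of H2-T3 and H2-Q7 lay 1.76 log2 units apart.

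Btnl1 had means of 4.04 in WT and 4.85 in KO on the log2 scale, a difference of 0.81, and KO stood at 176% of the WT level. The differences of Btnl1 and H2-T3 were 0.11 log2 units apart. The spread between libraries was not analysed here, so whether 2 members differ from each other by more than their error is not known.

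**Figure D1:**
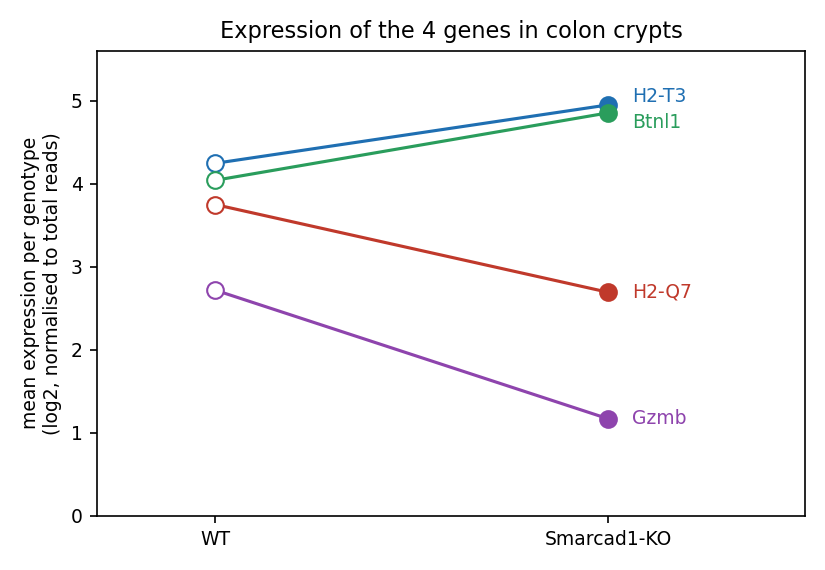
Mean expression of the 4 genes in WT (open circles) and Smarcad1-KO (filled circles) colon crypts, as the authors' log2 means normalised to total reads, with a line joining the means of each gene. No error bars are drawn because the values are 1 mean per genotype. H2-T3 and Btnl1 are higher in KO, while H2-Q7 and Gzmb are lower in KO.

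Levels of different genes can be compared only per length, and whether the deposited values are already scaled to it is not settled. If they are, the division below counts length again and the means given above stand in its place. Divided by the kilobases of the longest coding transcript, H2-Q7 was the highest of the 4 in WT, at 3.14 on the log2 scale, just above H2-T3 at 3.03 and Btnl1 at 2.96, with Gzmb at 2.19. In KO the same scaling gave 3.77 for Btnl1, 3.74 for H2-T3, 2.08 for H2-Q7 and 0.64 for Gzmb. Divided by the kilobases of all merged exons, H2-Q7 was the lowest instead, at 1.66 in WT and 0.60 in KO. Its place in the order thus depends on the length used. The merged exons of H2-Q7, over 6 annotated transcripts, run to 4265 bases, whereas its longest coding transcript has 1523 bases. H2-T3 and Btnl1 remained above Gzmb in both genotypes under either length.

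The differences of the 4 genes were then set beside those of the whole list, as means without an error. The median of the absolute differences was 0.94 for the 4 genes and 0.78 for all 61. Among the higher genes the median difference was 0.76, between those of H2-T3 and Btnl1, and among the lower genes it was -0.90, smaller in size than both lower members. Lowly expressed genes need a larger difference to enter such a list, so the members were set beside genes of like level. Of the 7 other listed genes within 1 log2 unit of the mean level of Gzmb, 6 differed by more than Gzmb, with a median absolute difference of 2.64. Of the 9 around H2-Q7, 5 differed by more. Around H2-T3, 18 of 23 genes differed by more, and around Btnl1 12 of 22.

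**Figure D2:**
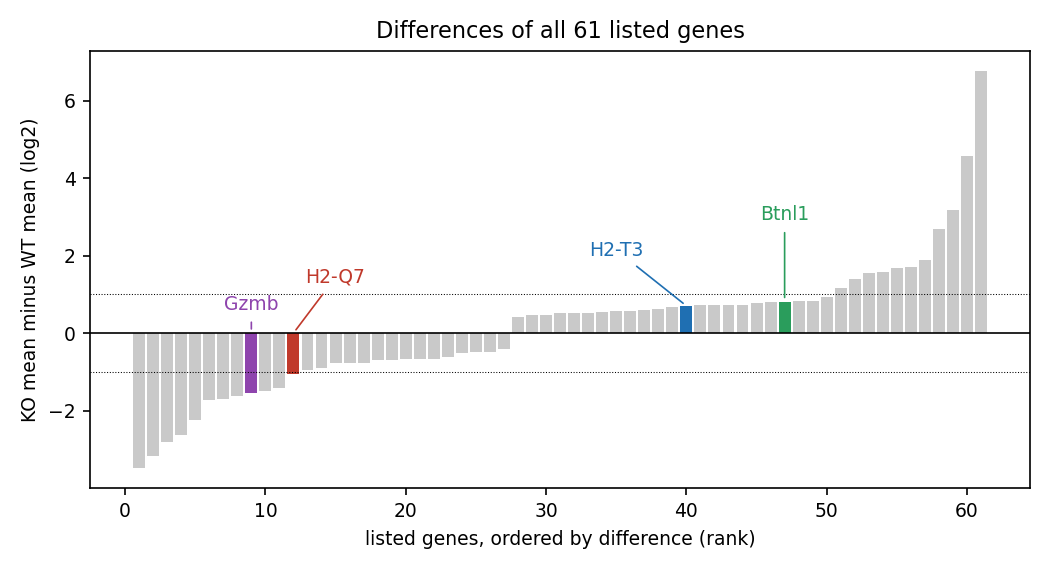
Difference of the KO mean minus the WT mean on the log2 scale for the 61 listed genes, ordered from the most negative to the most positive, with 1 bar per gene. The 4 members are coloured, the other genes are grey, and dotted lines mark 1 log2 unit in either direction. Gzmb and H2-Q7 lie past the lower line, H2-Q7 just beyond it, and H2-T3 and Btnl1 within the upper line.

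The listed genes whose difference was most like that of each member, measured as the gap between the differences of the 2 genotype means, were then named. For Gzmb these were Pcdh17, a protocadherin gene, with a difference of -1.51, and Tiam1, an exchange factor for the GTPase Rac, with -1.62. For H2-Q7 they were Sycn, a zymogen granule protein gene, at -0.96, and Tspan5, a tetraspanin gene, at -0.90. Gsdmc2, a gasdermin gene, at 0.72 and Sult1b1, a sulfotransferase gene, at 0.72 lay closest to H2-T3. Agphd1 at 0.82 and Zfp809, a zinc finger gene, at 0.81 lay closest to Btnl1. The likeness rests on 1 mean per genotype and reflects the size of a difference alone.

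Lists of the wider pathway were then looked up. The share of 0.255% given above is the background for each count. H2-Q7 and H2-T3 were the listed genes among 21 non-classical class I genes, of which 19 have an entry in the GENCODE M21 annotation. H2-Q8 and H2-Q9 have no entry there, and RefSeq gives Q9 as a synonym of H2-Q7. None of 16 classical class I and peptide loading genes was listed, among them H2-K1, H2-D1, B2m, which encodes the light chain of class I molecules, and Nlrc5, the activator of class I genes. Of 9 butyrophilin family genes Btnl1 was listed alone. The related genes Btnl4 and Btnl6, and Btnl2, the neighbour of Btnl1, had no value. None of 26 epithelial cytokines, chemokines and ligands was listed, of which 22 have an entry in that annotation. They included Il15, Il7, Ccl25 and the herpes virus entry mediator gene Tnfrsf14. The 9 MHC class II genes and 25 interferon response genes were not listed, nor were 15 crypt epithelium and 10 stromal markers. Over all lists, 189 genes were looked up, 183 of them have an entry in the annotation, and the 4 listed were the 4 members, around which the lists were chosen. The absence of a gene shows that it did not pass the authors' threshold and not that its level was the same, and the labelled tissue could not be checked against its markers for this reason.

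The 3 members on chromosome 17 lie in and around the major histocompatibility complex. Btnl1 runs from 34377132 to 34385776 and H2-Q7 from 35439155 to 35443773, both on the plus strand, and H2-T3 from 36185572 to 36190287 on the minus strand of GRCm38. Gzmb lies on chromosome 14 from 56258856 to 56262260 on the minus strand. In GENCODE M21 all 4 are protein-coding, overlap their annotated gene on the same strand, and overlap 0 other annotated genes. H2-Q7 and H2-T3 are 742 kb apart with 35 protein-coding genes between them, of which 0 were listed and 4 are H2 genes. Between Btnl1 and H2-Q7 there are 67 protein-coding genes over 1053 kb, again with 0 listed. The nearest relatives are closer still, with 9.10 kb from H2-Q6 to H2-Q7, 7.64 kb from Btnl2 to Btnl1 and 24.2 kb from Gzmc to Gzmb, and none of these relatives was listed. Only 0.255% of protein-coding gene names are listed, so these counts of 0 are no result about the genes between or the relatives.

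**Figure D3:**
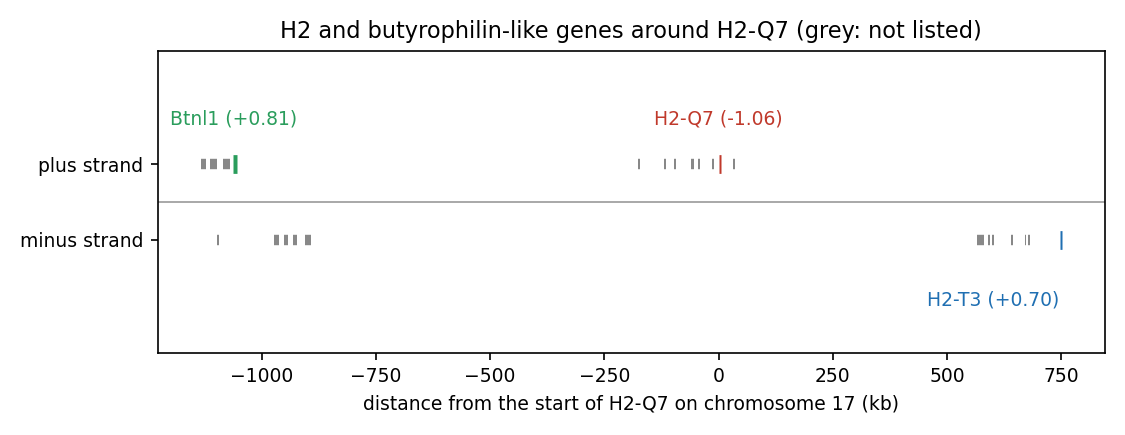
H2 and butyrophilin-like genes around H2-Q7, placed by their distance in kb from the start of H2-Q7 on chromosome 17, with genes of the plus strand above and of the minus strand below the line. Coloured genes are the members, with the KO minus WT difference on the log2 scale in brackets, and grey genes are not in the list. Btnl1, H2-Q7 and H2-T3 each sit among relatives that were not listed and have no value. Since 0.255% of protein-coding gene names are listed, this is no result about the relatives.

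How well reads can be assigned differed between the 4 genes. The longest coding transcript of each gene was split into overlapping words of 50 bases, and each word was looked up in every transcript of every other gene. For H2-Q7, 34.9% of 1474 words also occurred in other genes, and within its coding part 50.3%. The genes that shared the most were H2-Q6 with 284 words and H2-Q5 with 224, followed by the classical gene H2-D1 with 123. For H2-T3 the share was 1.24%, and for Btnl1 and Gzmb 0 words were shared. The authors kept uniquely mapped reads only, so the H2-Q7 values rest on the remaining part of its sequence. Their level, their difference between the genotypes and their assignment to this gene are uncertain. With words of 30 bases the shares were 49.4% for H2-Q7, 5.69% for H2-T3 and 0 for Btnl1, and 20 of 1407 words of Gzmb were shared. With words of 100 bases the H2-Q7 share was 16.4% and that of the other 3 genes was 0.

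**Figure D4:**
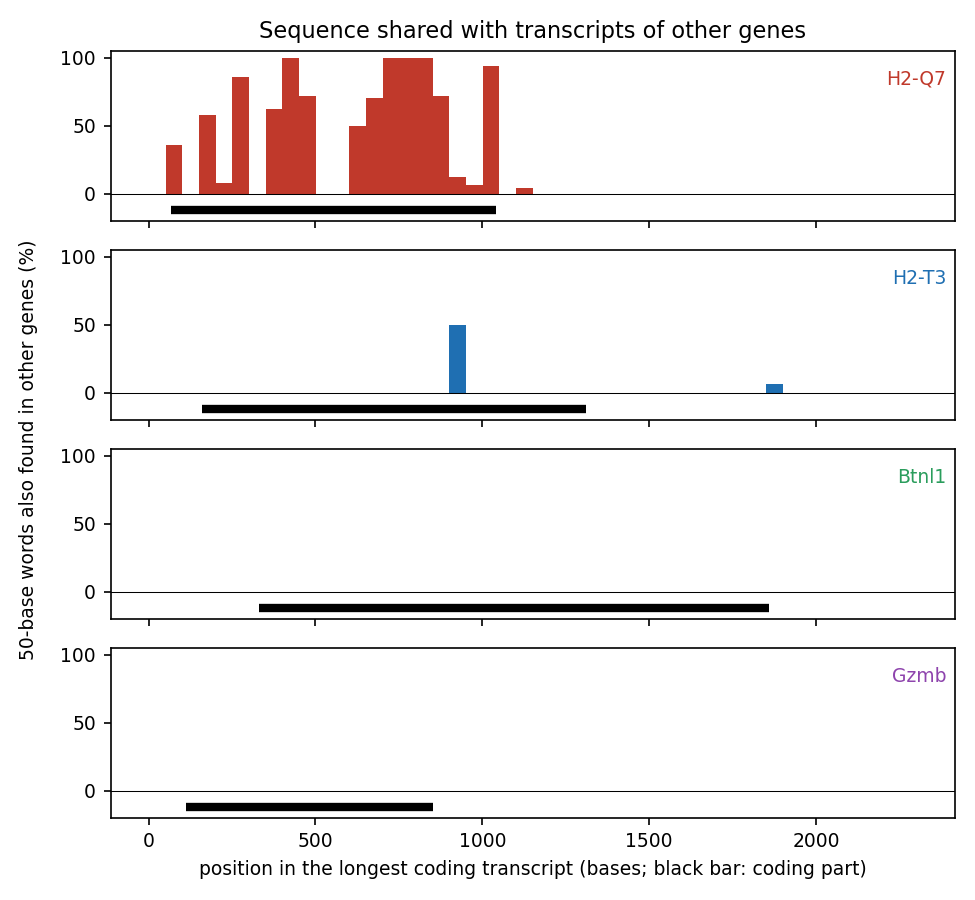
Percent of 50-base words also found in transcripts of other genes, along the longest coding transcript of H2-Q7, H2-T3, Btnl1 and Gzmb in bins of 50 bases, with the coding part as a black bar. Shared words fall mainly in the coding part of H2-Q7, H2-T3 has short shared stretches, and Btnl1 and Gzmb have none.

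The coding sequences of the members were aligned with those of their relatives. H2-Q7 was identical to H2-Q6 at 95.5% of aligned bases and to H2-D1 at 89.9%. H2-T3 stood further off, at 77.1% identity to H2-K1. H2-Q7 and H2-T3 were identical at 78.5%, whereas H2-Q7 and the 8 other H2 genes aligned ranged from 84.0% to 95.5%. Btnl1 was 64.4% identical to Btnl4 and 62.8% to Btnl6. Gzmb was 77.9% identical to Gzmc.

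Motifs of factors known to act on these gene families were searched in the 250 bases before the start, on both strands. The NF-kB site of H2-Q7 shown above in capitals, part of enhancer A of class I genes, lies from 133 to 124 bases before the start, and occurs in 0.0852% of all 32851 promoters. The HNF4 motif CAAAGTCCA was found in H2-T3 from 16 to 8 bases before the start, and occurs in 0.384% of promoters. HNF4 factors are regulators of gut epithelial genes. The CDX motif TTTATNG was found once in H2-T3, on the minus strand, against 9.81% of promoters. The motifs TTCNNNGAA of STAT factors, the GAAA repeat of IRF factors, TGACGC of class I genes and the TATA motif TATAAA were found in 0 of the 4 genes. They occur in 7.02%, 2.98%, 6.12% and 12.4% of promoters.

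Shorter or related motifs were searched after the sequences had been seen. CAAAGTCC, which is contained in the HNF4 motif above, was present in H2-T3 and in Btnl1, where it lies from 28 to 21 bases before the start. It was shortened until Btnl1 matched as well. It occurs in 1.20% of promoters. GTTTCACTT, the core of the interferon response element of class I genes, was present in H2-Q7 and H2-T3 and occurs in 0.338% of promoters. TGTGGT, the RUNX motif, was present at 2 places in Gzmb and at 0 in the other 3 genes, against 14.0% of promoters with a match. GACGTCA was found in 0 of the 4 and in 2.78% of promoters. These motifs were chosen with the sequences in view, so nothing is read from their shares among all promoters. The matches describe letters in a window and do not show that a factor binds there.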

How the data were processed

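Genes were taken from the deposited table of colon crypts by the symbol in its first column. According to the submitters' processing notes and the study's methods, the authors trimmed reads with Trim Galore 0.4.2, mapped them to GRCm38 with HISAT2 2.0.1 and kept uniquely mapped reads. The authors counted these in SeqMonk over exons of merged isoforms, and the authors tested KO against WT with DESeq2. The deposited values are log2 values, 1 mean per genotype over 3 libraries, scaled by the authors to the total reads of a library. RPKM is named in the methods for fold changes, so a scaling by length is not excluded. Values per library that the study gives elsewhere were not used here. The table also holds the authors' FDR, which was read only to check that 0 rows were at or above 0.05. The depth per library, the strand setting of the counting and the age of the mice are not given in the sources used here.

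Differences are the KO mean minus the WT mean. No test was run, because the members were selected on this contrast and the table gives no spread. For a gene of like level the mean of KO and WT had to lie within 1 log2 unit. Named are the 4 members, Smarcad1, listed genes of the gene lists, the 2 genes closest in difference to each member and listed genes within 1 Mb. Unlisted relatives were named after values were seen. The members and lists were chosen with earlier results of these data known.

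Annotation and transcripts came from GENCODE M21 and promoters from RefSeq, both of the GRCm38 build. Word and motif searches were tested on simulated sequences. Alternatives were pseudocounts of 1 and 0.1 on the linear scale, a mean log2 of at least 0, and levels per kilobase. Python 3.11.15, numpy 2.4.6, pandas 2.3.3, matplotlib 3.10.9 and Biopython 1.88 were used.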

Additional observations from a re-analysis of the deposited data

How the results depend on the processing

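Since the spread between libraries was not analysed here, shifts of over 0.1 log2 units were taken as a move. The direction of all 4 differences was the same with pseudocounts of 1 and 0.1, which cannot turn a sign. A pseudocount of 1 took Gzmb from -1.55 to -1.22 and H2-Q7 from -1.06 to -0.95, under 1 log2 unit, since it weighs more on low levels. The number of listed genes that differed by more than 1 log2 unit was 23, and 21 or 22 under the alternatives. Against the order of the deposited levels, which may not be per length, 2 of the 4 genes kept their rank in WT and 2 in KO per kilobase of merged exons, and 1 in WT and 2 in KO per kilobase of the longest coding transcript.

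No paired analysis was possible because the table used gives a single mean per genotype, and the study's values per library were not used here. Leaving out each library in turn was not run either, and whether a difference rests on a single library was not analysed. A multiplication of levels by length was not run.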
